A study of Rattus norvegicus with 6 samples.

Results

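In all, 10 genes that are best known from the adrenal gland were measured in the renal cortex, the outer layer of the kidney, of 6 male rats. They are 5 cytochrome P450 genes of steroid synthesis (Cyp11a1, Cyp11b1, Cyp11b2, Cyp11b3 and Cyp21a1), the cholesterol transport gene Star, and the genes Th, Dbh, Chga and Gal of chromaffin cells. These 10 of the 15645 genes that carry a symbol on the array were chosen by name, with their levels on these 6 arrays already known. Their values are therefore a description, and counts of them support nothing by themselves. Each gene had at least 1 probe, there were 17 probes in all, and a gene is represented by its brightest probe, judged by its mean log2 signal, unless stated otherwise.

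The rats were Sprague-Dawley males, Crl:CD(SD), 5 weeks old at purchase. For 4 weeks, 3 of them received carbon tetrachloride at 100 mg/kg/day and 3 received corn oil, and each rat gave 1 array of Cy3-labelled RNA. Benzyl acetate appears in the design text as the compound, but the title, the labels of the samples and their protocol all give carbon tetrachloride. Both groups share strain, sex, diet and tissue, and the route of dosing is not given in the sources used here. Levels below are log2 of the spot signal relative to the 75th percentile of the signals on the same array, so 0 marks that percentile and a difference of 1 is 2-fold. A level belongs to its probe, so levels of different genes are not set against each other. Between 68.5% and 72.1% of the 61537 probes were well above background on an array. Markers of the renal cortex were well above background on every array in 8 of 8 genes, among them the nephrin gene Nphs1 and the uromodulin gene Umod. Their summed level ran from 10.05 to 10.27 on the carbon tetrachloride arrays and from 10.13 to 10.19 on the corn oil arrays. A summed level adds linear signals, so the brightest probes of a list weigh most in it.

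The adrenal cortex makes steroid hormones from cholesterol. STAR carries cholesterol into the mitochondrion, where CYP11A1 cuts its side chain, CYP21A1 adds a hydroxyl group on the way to both corticosterone and aldosterone, and CYP11B1 and CYP11B2 finish corticosterone and aldosterone. Chromaffin cells of the adrenal medulla make catecholamines: TH, tyrosine hydroxylase, opens the pathway, DBH turns dopamine into noradrenaline, and the granules also hold chromogranin A (Chga) and peptides such as galanin (Gal). Sympathetic nerve endings carry TH and DBH too, and galanin is a neuropeptide of many neurons and some endocrine cells. The nuclear receptor NR5A1 drives the steroid genes of the adrenal cortex through motifs that contain AGGTCA, and cAMP drives the catecholamine genes through elements such as TGACGTCA.

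Promoters are shown for 4 members well above background on all 6 arrays, to set the 2 steroid genes among them beside the chromaffin genes. They come from RefSeq on the build GRCr8, whose table held 5 of the 10 members, and run from 250 bases before to 50 bases after the gene start. Capitals mark each match on either strand of AGGTCA, TGACGTCA or TATAAA, the core of a TATA box. No match of 1 motif overlapped another.
Cyp11a1, chr8:67318415-67318714, plus strand: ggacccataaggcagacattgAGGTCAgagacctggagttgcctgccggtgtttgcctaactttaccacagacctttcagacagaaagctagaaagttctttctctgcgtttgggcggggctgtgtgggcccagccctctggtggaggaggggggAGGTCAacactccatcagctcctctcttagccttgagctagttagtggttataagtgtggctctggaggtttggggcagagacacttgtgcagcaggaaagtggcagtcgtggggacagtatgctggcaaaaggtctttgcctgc
Cyp21a1, chr20:4028141-4028440, plus strand: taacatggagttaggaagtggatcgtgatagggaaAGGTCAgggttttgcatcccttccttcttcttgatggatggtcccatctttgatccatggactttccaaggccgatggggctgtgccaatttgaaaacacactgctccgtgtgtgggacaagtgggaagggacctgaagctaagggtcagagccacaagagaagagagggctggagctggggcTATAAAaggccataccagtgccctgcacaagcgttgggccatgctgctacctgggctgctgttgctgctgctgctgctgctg
Th, chr1:207508169-207508468, minus strand: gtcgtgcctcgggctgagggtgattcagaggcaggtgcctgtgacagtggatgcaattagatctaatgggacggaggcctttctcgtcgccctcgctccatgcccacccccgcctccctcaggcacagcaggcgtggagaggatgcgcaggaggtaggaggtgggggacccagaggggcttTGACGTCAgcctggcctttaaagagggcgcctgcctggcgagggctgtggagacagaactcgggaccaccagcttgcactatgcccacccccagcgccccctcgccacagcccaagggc
Gal, chr1:210084523-210084822, minus strand: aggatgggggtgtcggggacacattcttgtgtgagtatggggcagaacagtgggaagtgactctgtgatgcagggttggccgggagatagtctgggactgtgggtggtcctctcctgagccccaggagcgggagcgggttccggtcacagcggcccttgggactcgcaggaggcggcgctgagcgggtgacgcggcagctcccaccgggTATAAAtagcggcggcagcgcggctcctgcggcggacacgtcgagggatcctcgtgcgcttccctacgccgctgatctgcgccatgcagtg
AGGTCA stood at positions -229 and -95 in the Cyp11a1 window and at -215 in the Cyp21a1 window, counted from the gene start, and 15.7% of 27457 rat promoters of this length hold it. TGACGTCA stood at -69 in the Th window, where 1.91% of promoters hold it. The Gal window held TATAAA at -41 and neither of the other motifs, and TATAAA is in 14.3% of promoters. These are matches of letters and were not tested as binding sites.

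The genes known from the adrenal gland were divided in their signal: some were measured on every array and others on none. Of the 10 genes 5, Cyp11a1, Cyp11b3, Cyp21a1, Th and Gal, were well above background on all 6 arrays. Of all 45433 transcripts, 29879 had a probe well above background on all 6. Cyp11b1, Cyp11b2 and Star were well above background on 0 of the 6 arrays, Dbh on 3 and Chga on 2. Whether adrenal cells were among the cells sampled was not tested. Gal was the member that varied most, with a 172-fold gap between its 4 bright arrays and its 2 dim arrays, both of which came from rats given carbon tetrachloride. In bulk tissue, fewer cells of a type and less RNA per cell cannot be told apart.

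**Figure D1:**
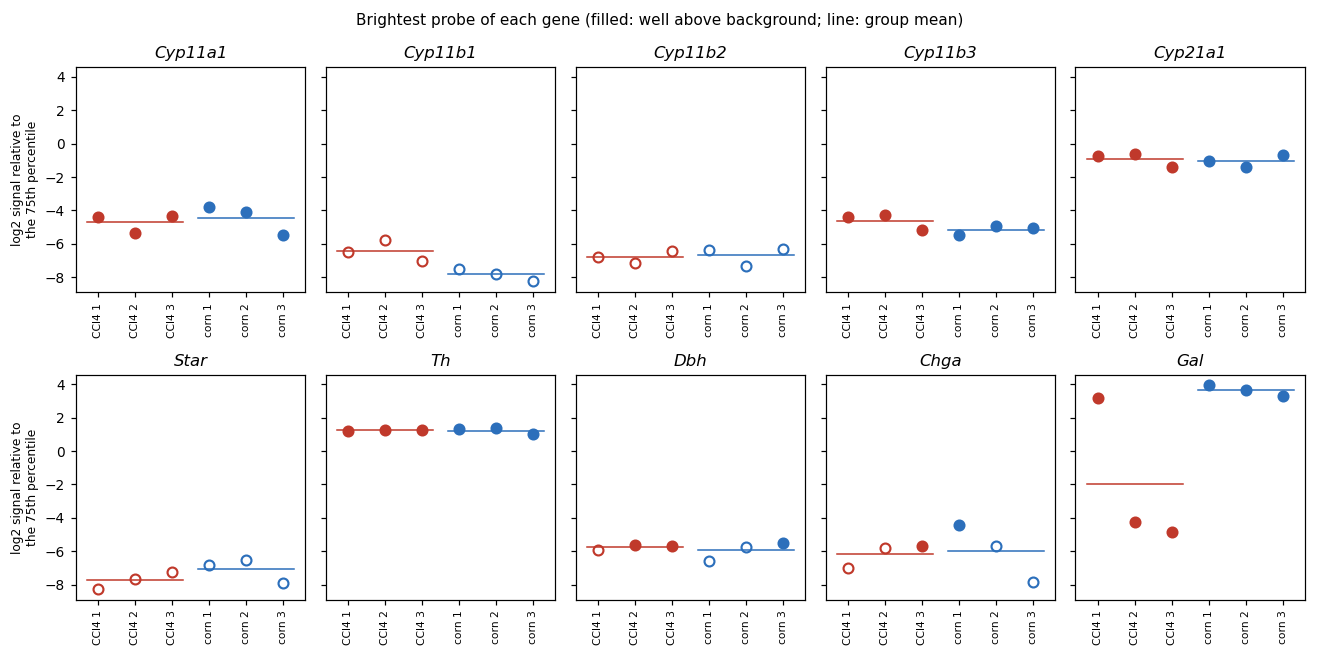
Level of each of the 10 genes on each array (vertical axis, log2 signal relative to the array's 75th percentile). Red points are carbon tetrachloride arrays (CCl4 1 to 3), blue points corn oil arrays (corn 1 to 3), filled points are well above background, open points are not, and lines are group means of n = 3. Cyp11b1, Cyp11b2 and Star have open points only, Th is nearly level, and Gal is near -4.26 and -4.83 on CCl4 2 and CCl4 3 and at 3.16 or more on the other arrays.

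Galanin had a bright spot in 4 of these kidneys and a dim one, still well above background, in the other 2. The brighter of its 2 probes read a processed signal of 9108 in carbon tetrachloride replicate 1, 52.8 in replicate 2 and 36.0 in replicate 3, against 16224, 13801 and 10661 in corn oil replicates 1 to 3. As levels these were 3.16, -4.26 and -4.83 against 3.95, 3.66 and 3.31. Carbon tetrachloride replicate 1 thus lay with the corn oil rats, and the groups did not overlap because it was the lowest of the 4 bright arrays by a small step. The 4 bright arrays spanned 0.79 on the log2 scale, while the highest array exceeded the lowest 439-fold.

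The other Gal probe gave the same picture. Its levels were 2.47, -5.08 and -5.84 on the carbon tetrachloride arrays and 3.24, 2.90 and 2.56 on the corn oil arrays, with a 188-fold gap between the bright and the dim arrays. Pearson's r between the 2 probes was 0.9999 over the 6 arrays, which describes 2 readings of the same RNA samples. Both probes were well above background on all 6 arrays, but the dim spots lay near the limit of that flag. The dimmer probe read 17.9 in processed signal on carbon tetrachloride replicate 3, while a Cyp11b1 spot of 18.5 on replicate 2 was not well above background. The size of the gap also differed with the background correction: the range of the brighter probe was 7.41 or 7.42 with normexp, described below. Of the 29879 transcripts well above background on all 6 arrays, 0 had a wider range than the 8.78 of Gal (log2), and the median range was 0.38. A range of at least 1 was found in 9.16% of them and of at least 3 in 0.358%.

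The group means of Gal were -1.98 ± 4.46 after carbon tetrachloride and 3.64 ± 0.32 after corn oil (SD, n = 3 each). The log2 difference was -5.62 ± 2.12 (SE), a mean drawn from 1 bright and 2 dim arrays that describes none of the 3 treated rats. Carbon tetrachloride replicates 1 and 2 lay on the slide of the corn oil arrays, and replicate 3 lay alone on a second slide and in a second scan. Bright and dim Gal signals were both present on the first slide. Within that slide the difference was -4.19 ± 2.19.

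**Figure D2:**
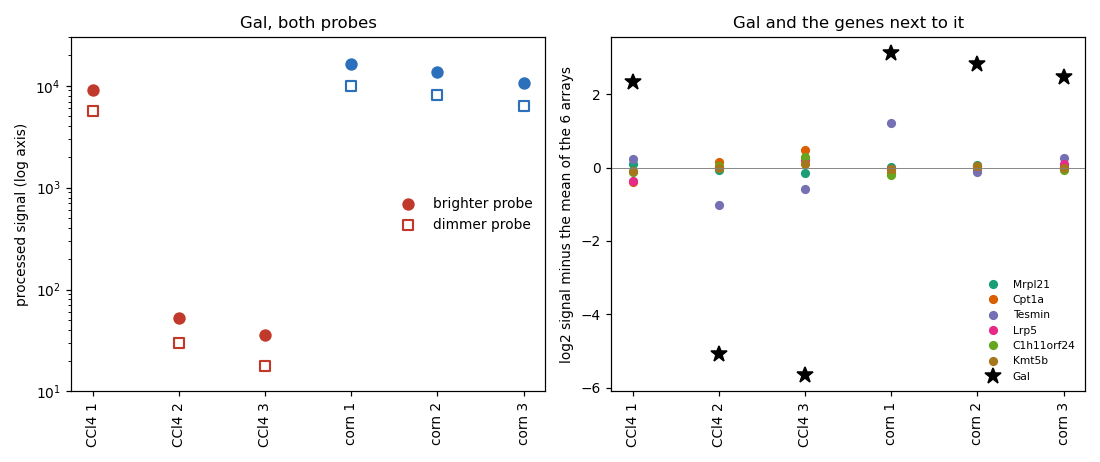
Left, processed signal (log axis) of both Gal probes on the 3 carbon tetrachloride arrays (red) and the 3 corn oil arrays (blue). Right, level of Gal (star) and of 6 genes next to it on the chromosome, each minus its own mean over the 6 arrays (log2). CCl4 2 and CCl4 3 read 52.8 and 36.0 on the brighter probe, and the neighbours stay within a narrow band except Tesmin, which was not well above background on 1 array.

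The genes next to Gal on the chromosome were looked at after its values were seen, 3 measured genes on each side in the order of the GRCr8 annotation. Lrp5, a co-receptor of Wnt signalling, had levels of 0.13, 0.50 and 0.69 on the carbon tetrachloride arrays and 0.46, 0.54 and 0.59 on the corn oil arrays. Cpt1a, which admits fatty acids to mitochondria, had 2.80, 3.34 and 3.67 against 3.04, 3.13 and 3.20, so it was higher on the 2 arrays with dim Gal than on the other 4. Mrpl21, C1h11orf24 and Kmt5b spanned 0.22, 0.47 and 0.19 over the 6 arrays (log2). Tesmin, well above background on 5 arrays, spanned 2.26 and was lowest on the 2 arrays with dim Gal, at -6.48 and -6.03. None of the 6 followed Gal in size. The share of all transcripts that were highest or lowest on those 2 arrays was not computed.

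Of the named genes with a range of at least 1 (log2), 1031 could be compared with Gal over the 6 arrays. The 5 most alike by Pearson's r were Resp18 (0.929), Mesp2 (0.925), Oacyl (0.897), H1f5 (0.892) and Errfi1 (0.891). With 6 arrays in 2 clusters these values mainly say that carbon tetrachloride replicates 2 and 3 were low. Resp18, a protein of neuroendocrine granules, was low on these 2 arrays, at 4.59, 3.51 and 3.92 after carbon tetrachloride against 4.80, 4.45 and 4.61 after corn oil. Its range of 1.30 was a small part of that of Gal.

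The 3 steroid enzymes with a signal on every array varied between arrays more than most transcripts in the main setting, with groups that overlapped. The range over the 6 arrays (log2) was 1.68 for Cyp11a1, 1.17 for Cyp11b3 and 0.80 for Cyp21a1, wider than in 97.7%, 93.9% and 84.3% of transcripts. These shares take bright and dim transcripts together and were not computed with normexp, the other background correction described below. With normexp the range was 0.74 or 0.66 for Cyp11a1, 0.458 or 0.495 for Cyp11b3 and 0.692 or 0.675 for Cyp21a1, by the scaling used. Cyp11a1, the side-chain cleavage enzyme that starts all steroid synthesis, had levels of -4.40, -5.35 and -4.31 after carbon tetrachloride and -3.79, -4.11 and -5.47 after corn oil. The lowest and the highest array were both corn oil arrays, the groups overlapped, and the log2 difference was -0.23 ± 0.51 (SE, n = 3 per group). Its spots were dim, between 24.3 and 75.7 in processed signal. The second Cyp11a1 probe was well above background only on corn oil replicate 3, the array on which the first probe read lowest, so the 2 probes did not rank the arrays alike.

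Cyp21a1, the 21-hydroxylase, read between 389.7 and 669.9 in processed signal. Its levels were -0.72, -0.61 and -1.39 after carbon tetrachloride and -1.03, -1.41 and -0.68 after corn oil, with 1 low array in the first group, 1 high array in the second and a log2 difference of 0.13 ± 0.27. Its second probe was well above background on 1 array, corn oil replicate 3. The signal of this gene therefore rests on 1 of 2 probes.

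Cyp11b3, a relative of the 11-beta-hydroxylase genes, had levels of -4.40, -4.30 and -5.17 after carbon tetrachloride and -5.47, -4.94 and -5.04 after corn oil. Carbon tetrachloride replicates 1 and 2 lay above all corn oil arrays and replicate 3 among them, and the log2 difference was 0.53 ± 0.27. Its spots were dim, between 23.6 and 51.4 in processed signal. Its second probe read -4.69, -5.54 and -5.02 against -4.74, -4.57 and -4.95, a difference of -0.33 in the other direction. The Cyp11b genes are close copies, and the files give no probe sequences, so cross-hybridisation between them was not tested.

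The other 3 genes of steroid synthesis were not well above background on any array. Cyp11b1, which finishes corticosterone in the zona fasciculata, had processed signals of 11.4, 18.5 and 7.84 after carbon tetrachloride and 5.78, 4.94 and 3.60 after corn oil. All 6 spots were not well above background, so the order of the groups is no measured difference. Cyp11b2, the aldosterone synthase, read 9.27, 7.21 and 12.0 against 12.9, 6.88 and 13.4. Star read 3.25, 5.07 and 6.74 against 9.09, 12.0 and 4.49. For these 3 genes the arrays give only that no spot stood out from background.

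Among the chromaffin genes Th had a steady signal. Its brighter probe read 2306, 2454 and 2491 in processed signal after carbon tetrachloride and 2585, 2792 and 2185 after corn oil. Its levels were 1.18, 1.27 and 1.28 against 1.30, 1.36 and 1.02, the groups overlapped, and the log2 difference was 0.02 ± 0.11. The range of 0.33 over the arrays was below the median of 0.38 for all transcripts. The second Th probe read between 31.1 and 43.0 and differed by 0.32 between the groups. It spanned 0.54 over the arrays, so the bright and steady signal is that of the brighter probe.

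The other 2 chromaffin genes were at the edge of detection. Dbh read 17.1, 20.2 and 20.1 in processed signal after carbon tetrachloride, well above background in replicates 2 and 3, and 11.05, 20.0 and 23.6 after corn oil, well above background in replicate 3. Chga read 7.89, 18.1 and 20.0 after carbon tetrachloride and 48.5, 21.0 and 4.65 after corn oil. It was well above background in carbon tetrachloride replicate 3 and corn oil replicate 1. The second probes of Dbh and Chga were well above background on 0 of the 6 arrays.

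The difference between the treated and the corn oil rats was fitted over all 31193 tested transcripts with limma and Benjamini-Hochberg adjustment. At an adjusted p of 0.05 it called 1 transcript (0.00321%), which is no member. Of the members 5 passed the filter on dim probes and were tested, and 0 of these were called. At an unadjusted p under 0.05 there was 1 member, Gal, where 6.3% of all transcripts were. The median log2 difference was 0.02 over the 5 tested members, 3 higher and 2 lower, and 0.0080 over all transcripts. Gal was the 1 tested member whose groups did not overlap, and 12.8% of all transcripts did not overlap, 7.55% higher and 5.28% lower. The members were chosen with these values known, so nothing is read from the counts.

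Without carbon tetrachloride replicate 1, the treated rat with bright Gal, Gal was called at an adjusted p of 0.0218 in limma with a log2 difference of -8.19 ± 0.26. Leaving out the 1 treated array with bright Gal narrows the treated group by construction. Over the other settings the adjusted p of Gal ran from 0.7037 to 0.9779.

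**Figure D3:**
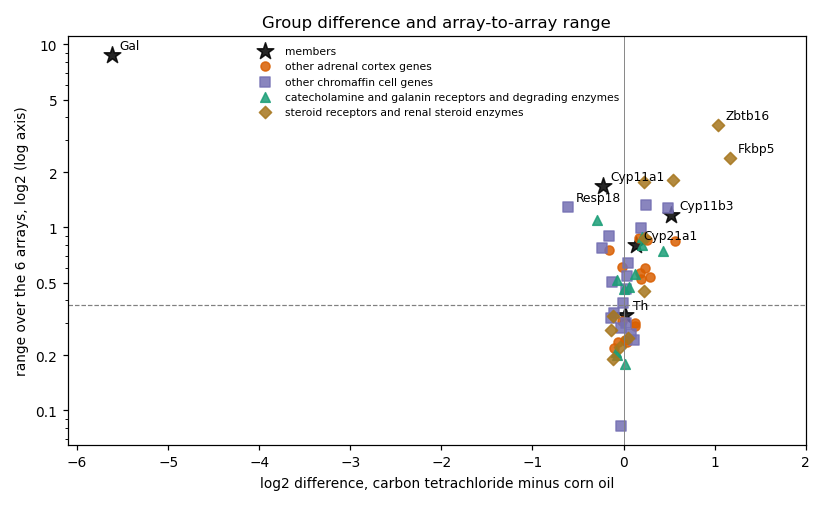
Log2 difference between the groups (horizontal axis, carbon tetrachloride minus corn oil) against the range over the 6 arrays (vertical axis, log2, log axis) for most genes of 5 lists well above background on all 6 arrays. Stars are the 5 members, other symbols the other lists, and the dashed line is the median range of all such transcripts, 0.38. Gal lies alone at -5.62 and 8.78, while the other members lie between -0.23 and 0.53.

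Other genes of the adrenal cortex were taken from a textbook list of 20 genes. No adrenal tissue was measured here, so whether the rat adrenal cortex expresses each of them, Cyp17a1 included, was not tested. Of the 20 genes 16 were well above background on every array, where 29879 of 45433 transcripts were. In limma 0 of 16 tested passed the threshold, with 2 at an unadjusted p under 0.05, where 6.3% of all transcripts were. The median log2 difference was 0.13, with 11 higher and 5 lower, against 0.0080 with 16301 higher and 14892 lower over all transcripts. Several genes of the list are also used by the kidney itself, such as the ferredoxin gene Fdx1, which passes electrons to mitochondrial P450 enzymes including those of vitamin D, and the high-density lipoprotein receptor gene Scarb1. The ACTH receptor gene Mc2r, the steroidogenic factor gene Nr5a1 and the potassium channel gene Kcnk9 were well above background on 0 of 6 arrays. Nr0b1, Mrap, Cyp17a1, Hsd3b1 and Inha were so on all 6. Akr1b7 was so on 1 array, corn oil replicate 3. This was also the only array on which the second probes of Cyp11a1 and Cyp21a1 were so, while the first Cyp11a1 probe read lowest there. Whether these readings are linked was not tested. The summed level of the list ran from 5.86 to 6 after carbon tetrachloride and from 5.88 to 5.98 after corn oil. The bright probes of Fdx1 and Stard3 weigh most in this sum, so it says little about the dim genes.

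Dlk1, a membrane protein of the outer adrenal cortex in rats, had the smallest p of the list. Its levels were -4.39, -4.31 and -4.90 after carbon tetrachloride and -5.16, -5.08 and -5.07 after corn oil. All 3 treated arrays were above the corn oil arrays, with a log2 difference of 0.57 ± 0.16 and an adjusted p of 0.756 in limma. Among the 16 tested genes of the list 2 were higher on each treated array and 1 lower, where 7.55% and 5.28% of all transcripts were. Soat1, which stores cholesterol as esters, had 0.29 ± 0.11 (0.786), the inhibin gene Inha 0.23 ± 0.14 (0.831) and the repressor gene Nr0b1 -0.11 ± 0.07 (0.833). Hsd3b1, the dehydrogenase that follows CYP11A1, had levels of 0.09, 0.37 and 0.05 against -0.13, -0.48 and 0.35. Corn oil replicates 2 and 3 held its lowest and almost its highest level. The ACTH receptor partner Mrap spanned 0.88 over the arrays and Cyp17a1, the 17-hydroxylase, 0.75.

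Of 30 further chromaffin cell genes 29 had a probe. Of the 29, 18 were well above background on every array, where 29879 of 45433 transcripts were, and 7 on none. Of 19 tested 0 passed the threshold and 0 had an unadjusted p under 0.05 in limma, where 6.3% of all transcripts did. The 7 at background included the enkephalin gene Penk, the granule gene Vgf and the neuronal genes Stmn2 and Syt1. Among the 18 were Pnmt, which makes adrenaline, and the vesicular amine transporter gene Slc18a1, both named here after their values were seen. Pnmt had levels of -1.53, -1.38 and -1.45 after carbon tetrachloride and -1.37, -1.58 and -1.64 after corn oil, with overlapping groups. Slc18a1 had -2.52, -1.79 and -1.76 against -1.62, -1.96 and -2.00. Chgb, which encodes the second chromogranin, was well above background on 2 arrays. The median log2 difference was -0.0030, with 9 higher and 10 lower. Resp18 had the smallest p, with -0.61 ± 0.28 and an adjusted p of 0.798. Pcsk1, a prohormone convertase, had 0.49 ± 0.31 (0.834), the noradrenaline transporter gene Slc6a2 -0.14 ± 0.08 (0.825) and the nicotinic receptor gene Chrnb4 0.11 ± 0.09 (0.842). Scg3 and Scg2, granule proteins, spanned 1.33 and 1.00 over the arrays without following the groups. The proximal tubule makes dopamine with Ddc, which spanned 0.28. The summed level of the list ran from 6.28 to 6.52 after carbon tetrachloride and from 6.45 to 6.73 after corn oil. The bright probes of Ddc and Resp18 weigh most in this sum, so it says little about the dim genes.

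The receptors and degrading enzymes of the catecholamines and galanin were listed as the receiving side. Of the 15 genes, 12 were tested and 0 passed the threshold. At an unadjusted p under 0.05 in limma there was 1 of them, where 6.3% of all transcripts were. Among the 12, 1 gene was higher on each treated array and 0 lower, where 7.55% and 5.28% of all transcripts were. The median log2 difference was 0.0080. Galr2, a galanin receptor, was well above background on all arrays with -3.77, -3.12 and -2.89 after carbon tetrachloride and -3.54, -3.46 and -3.38 after corn oil. The 2 arrays with dim Gal held its 2 highest levels, and the difference between the groups was 0.20 ± 0.23. The share of all transcripts with this order was not computed, so nothing is read from it. Galr1 was well above background on 0 arrays and Galr3 on 2. Adra2b, an adrenergic receptor of the kidney, had 3.04, 3.35 and 3.04 against 2.75, 2.77 and 2.61, higher on each treated array, with 0.43 ± 0.11 and an adjusted p of 0.740. Its other 2 probes differed in the same direction, by 0.34 and 0.15.

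**Figure D4:**
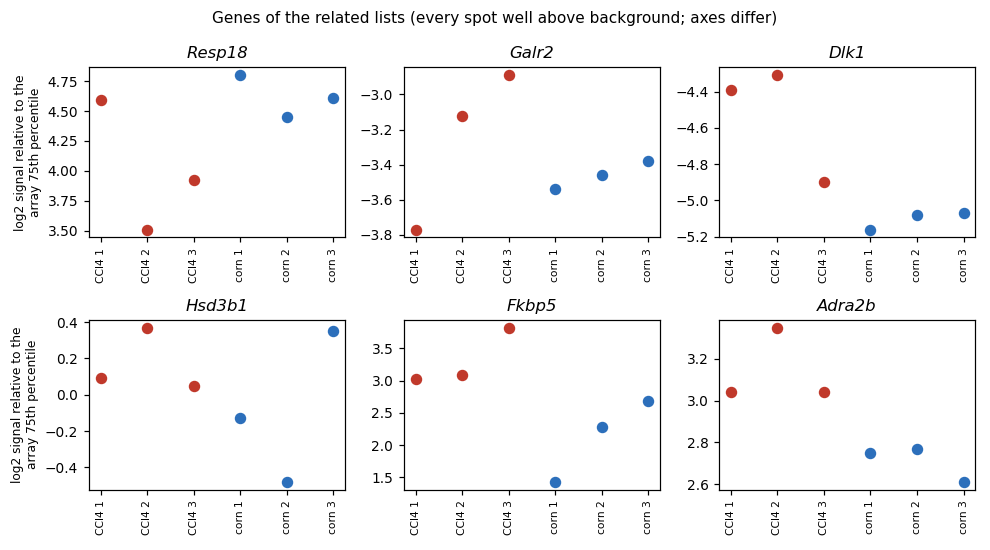
Levels of 6 genes of the related lists on each array (vertical axes, log2 signal relative to the array's 75th percentile, with a different scale in each panel). Red points are carbon tetrachloride arrays and blue points corn oil arrays. Resp18 is low on CCl4 2 and CCl4 3, Galr2 is highest on those 2 arrays, and Fkbp5, Adra2b and Dlk1 have each treated point above each corn oil point. Of all tested transcripts 7.55% do so, and the share with the order of Resp18 or of Galr2 was not computed.

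Steroid hormones act on the kidney through the glucocorticoid and mineralocorticoid receptors. Of 11 genes for these receptors, renal steroid enzymes and steroid targets, all were tested and 0 passed the threshold. At an unadjusted p under 0.05 in limma there was 1 of them, where 6.3% of all transcripts were. Among the 11, 1 gene was higher on each treated array and 1 lower, where 7.55% and 5.28% of all transcripts were. The median log2 difference was 0.22. Fkbp5, a chaperone gene induced by glucocorticoids, had levels of 3.02, 3.08 and 3.82 after carbon tetrachloride and 1.43, 2.28 and 2.69 after corn oil. Its adjusted p was 0.768 in limma. The groups were apart on all 3 of its probes, which read the same RNA samples. Zbtb16, a transcription factor gene also induced by glucocorticoids, had -5.15, -2.97 and -2.05 against -5.69, -5.09 and -2.51, so both groups held high and low arrays. Sgk1, a kinase of sodium reabsorption, and the clock gene Per1 spanned 1.82 and 1.76 over the arrays. Scnn1a, a subunit of the epithelial sodium channel, had 0.22 ± 0.11 (0.800), the glucocorticoid receptor gene Nr3c1 -0.12 ± 0.06 (0.820) and Hsd11b1, which regenerates active glucocorticoid, -0.14 ± 0.09 (0.827).

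Patterns like those of the dim steroid genes were also listed. Over the 6 arrays the genes most like Cyp11a1 were Tspan1, Mcpt9, Or52ae8, RT1-DOa and Rrm2, with Pearson's r from 0.942 to 0.956. The genes most like Cyp11b3 included Clec4a2, Apoa1, Eddm3b and Pcsk1, with r from 0.890 to 0.966. None of these is another member. Between members r ran from -0.696, for Cyp11a1 with Cyp21a1, to 0.661, for Cyp11a1 with Th, and among the steroid enzymes r was -0.512 for Cyp11a1 with Cyp11b3 and 0.579 for Cyp11b3 with Cyp21a1. These values rest on 6 points that share arrays and on dim spots and are descriptions only.

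Other tissues that could come with the cortex were checked beside the members. Peripheral nerve and Schwann cell genes were well above background on all arrays in 9 of 13 genes, where 29879 of 45433 transcripts were. Their summed level, in which the brightest genes weigh most, ran from 1.46 to 1.66 after carbon tetrachloride and from 1.73 to 1.94 after corn oil. Of the 10 genes tested 4 were higher and 6 lower, with a median log2 difference of -0.05. Groups did not overlap in 0 of the 10, where they did not in 12.8% of all transcripts. Nefm had the smallest p of the list, -0.47 ± 0.20 (adjusted p 0.798), Gap43 had 0.54 ± 0.24 (0.798) and S100b -0.64 ± 0.40 (0.833). Nefl and Elavl4 were well above background on 0 arrays. Adipose markers were so on all arrays in 6 of the 8 genes with a probe, with a summed level from 1.73 to 2.06 against 1.39 to 1.97, and Lep was on 0. Liver markers were so in 5 of 9, with Ttr, Serpina1 and Tat on 0, and their summed level, which includes Cyp2c11 with a range of 6.04, ran from 0.84 to 2.08 against 0.77 to 4.07. Of 10 nerve, 7 adipose and 5 liver genes tested, 0 passed limma's threshold. At an unadjusted p under 0.05 there were 0, 1 and 1 of them, where 6.3% of all transcripts were. Their part in the Gal pattern was not tested.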

How the data were processed

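The authors deposited the scanner output of each array, an intensity per spot, made with Agilent Feature Extraction 10.7.1.1 per the file headers (10.7 per the submitters' processing notes). Per the file headers, the processed signal is linear and has the background taken off. The deposited value table equalled it divided by 1 factor per array, close to that array's 75th percentile, so its scale is linear, and its column medians were 0.116, 0.115 and 0.111 for carbon tetrachloride and 0.118, 0.111 and 0.114 for corn oil. The table has 0 columns of other samples.

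Levels are the log2 processed signal after subtraction of the array's own 75th percentile (log2). The 1439 control spots and spots with an outlier flag, 0 to 25 per array and 0 among the members' brightest probes, were left out. Accessions, without version, were matched to RefSeq genes of GRCr8 for names, for 28206 of 61537 probes (45.8%). A probe was tested if well above background on all arrays of a group, and the brightest tested probe stood for a gene. The group comparison used R 4.3.3 and limma 3.58.1, with eBayes after lmFit, two-sided, and Benjamini-Hochberg adjustment. It was also run on simulated data drawn with the means and spreads of that fit. The plan had assumed a mean spot signal, and normexp (offset 50) used the median spot and background signals.

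Members and lists were chosen with earlier results of these data known. Named from each list were genes past the threshold, or else up to 4 of smallest p, and up to 4 of widest range, and some genes that these rules name are not reported here. Patterns most alike were the 5 named genes of highest r for each of the 3 members with the widest range. The samples are described as biological replicates in the design text. The number of arrays limits the precision. Same-numbered samples deviated from their group means with r of -0.014, -0.084 and -0.082, and differently numbered ones with r from -0.052 to 0.13. No pairing by number showed in these values, which cannot tell whether the rats were paired in the design.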

Additional observations from a re-analysis of the deposited data

How the results depend on the processing

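Of the members 0 passed the threshold in the main setting and in each alternative, with 1 exception: 1 member, Gal, passed without carbon tetrachloride replicate 1, so that the count ran from 0 to 1 when single arrays were left out. With the replicate block 0 members passed, and 0 transcripts in all. Of the related lists 0 genes passed in any setting. The count of 1 transcript over the whole array was 0 under both normexp settings (75th percentile and quantile), when dim probes were kept, when a probe had to be well above background on all 6 arrays, under a robust fit with trend, with the replicate block and with the slide block, which is the same fit as that without carbon tetrachloride replicate 3. Without single arrays it ran from 0 to 2: it was 0 without carbon tetrachloride replicate 2 or 3 or corn oil replicate 1, and 2 without corn oil replicate 3. The difference of Gal ran from -8.19 to -4.19 over all settings and its range over the arrays from 7.41 to 9.08, the second probe included, a setting chosen after seeing the data. Of 137 recomputed member differences 129 stayed within 1 SD of the main value, and 17 turned sign, none of them of Gal. The SD is the gene's own within the groups. It is wide for Gal (4.46 and 0.32), so the move from -5.62 to -8.19 counted as staying. The robust fit with trend and the replicate block leave a difference unchanged by construction, so part of the 129 was fixed in advance. Of 117 recomputed ranges 22 moved by more than 1 such SD. That of Cyp11a1 was 0.74 or 0.66 with normexp against 1.68, and the cause was not tested. Members not well above background have no order between arrays.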
